A study of Mus musculus with 20 samples.

Results

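NF-kB is a family of transcription factor subunits that is held inactive by inhibitor proteins and switches on, among its own targets, the genes of those inhibitors. The 10 genes described here are 4 genes of subunits (Nfkb1, Nfkb2, Rel and Relb) and 6 genes of inhibitors and feedback regulators (Nfkbia, Nfkbib, Nfkbie, Nfkbid, Nfkbiz and Tnfaip3). They were taken by symbol from a fixed list, 10 of the 23992 gene symbols in the data, and for each gene the transcript that collected most reads in the 20 libraries was used. RNA of mouse Tregs and CD8+ T cells from spleen and lymph node was sequenced without stimulation or after culture with IL-2 or with IL-2-REH, each at 200 nM, for 90 min or 4 hr. Tregs, the Foxp3-expressing CD4+ T cells, were obtained from B6-Foxp3EGFP mice by a CD4+ kit and sorting for GFP, and CD8+ T cells were purified with an isolation kit from C57BL/6J mice according to the protocol, whereas the strain given for every sample is C57BL/6N. IL-2-REH is human IL-2 altered where it contacts the common gamma chain of the receptor, a partial agonist. There were 3 numbered Treg libraries in each of 5 groups and a single CD8+ library in each. No cytokine-free culture of 90 min or 4 hr is among the samples used here, so time in culture and cytokine cannot be told apart. The labels do not say whether the 3 libraries of a group came from separate animals or cultures, so p-values measure the spread between these libraries, which may be technical.

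In resting T cells, IkB proteins keep NF-kB in the cytoplasm, and stimulation of the antigen receptor or of receptors of the TNF family leads to their degradation. Nfkb1 and Nfkb2 encode precursors that are processed to DNA-binding subunits, Rel (c-Rel) is needed for the development of Tregs, and Relb pairs with the product of Nfkb2 in the alternative pathway. IL-2 itself signals mainly through STAT5, which binds DNA motifs of another kind, and Tnfaip3 (A20) is a ubiquitin-editing enzyme that limits signaling upstream of NF-kB.

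The DNA just before the transcription starts of the members shows how many of these genes carry a motif of their own pathway. RefSeq windows on GRCm38.p6, from 250 bases before to 50 after a start, were at hand for 7 of the 10 members, in 12 windows. The kappa B consensus, read on both strands, was present in 8 of the 12 windows, which belong to 6 of these 7 genes, and in 8.46% of all 32851 windows. The palindrome TTCNNNGAA, the form bound by STAT5, was present in 3 of the 12 windows, those of Nfkbid and Nfkb2, and in 8.3% of all windows. The stretches printed here are shown because they hold kappa B matches of 6 of the genes whose levels are described next, 1 window for each gene. They are written 5′ to 3′ on the strand of the gene, begin up to 20 bases before the first match, lie before the start, and carry each match in capitals. The stretch of Nfkbia is chr12:55492648-55492696 on the minus strand, that of Nfkbie chr17:45555574-45555623 on the plus strand, that of Tnfaip3 chr10:19015411-19015555 on the minus strand and that of Rel chr11:23771031-23771081 on the minus strand. The stretch of Nfkb2 is chr19:46304678-46304736 on the plus strand, before the most upstream of its starts with a window. The annotated gene begins upstream of that start, and whether the transcript counted here begins at it was not checked. The stretch of Nfkbid is chr7:30422160-30422254 on the plus strand, before the middle of its 3 starts.
Nfkbia: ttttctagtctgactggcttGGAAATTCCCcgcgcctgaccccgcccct
Nfkbie: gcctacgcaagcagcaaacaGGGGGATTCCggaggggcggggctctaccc
Nfkbid: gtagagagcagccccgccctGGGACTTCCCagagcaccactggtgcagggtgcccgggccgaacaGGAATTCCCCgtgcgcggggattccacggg
Tnfaip3: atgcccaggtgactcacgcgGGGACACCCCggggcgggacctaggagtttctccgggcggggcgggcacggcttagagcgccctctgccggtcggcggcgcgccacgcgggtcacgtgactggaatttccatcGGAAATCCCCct
Rel: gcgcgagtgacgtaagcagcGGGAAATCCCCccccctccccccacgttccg
Nfkb2: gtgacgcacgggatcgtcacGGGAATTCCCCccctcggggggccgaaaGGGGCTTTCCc
In Rel and in the first match of Nfkb2, hits on both strands overlap and are shown as a single run of capitals. A match is a description of the letters and not a binding site.

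On GRCm38, the inhibitor genes counted lie at chr12:55489409-55492647 (Nfkbia), chr7:28758251-28766644 (Nfkbib), chr17:45555700-45563169 (Nfkbie), chr7:30421731-30428749 (Nfkbid), chr16:55811375-55838954 (Nfkbiz) and chr10:19000910-19015410 (Tnfaip3). The subunit genes lie at chr3:135584655-135691969 (Nfkb1), chr19:46300994-46312400 (Nfkb2), chr11:23736847-23770969 (Rel) and chr7:19606217-19629438 (Relb). The values are sums over the exons of 1 transcript each. Overlap with another annotated gene was found for Nfkbib (Ccer2), Nfkb1 (Gm46827) and Nfkb2 (4833438C02Rik and Psd), whose reads may be shared.

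All 10 members were well covered, from 962 reads (Nfkbie in a Treg library with IL-2 at 4 hr) to 205857 reads (Tnfaip3 in a Treg library with IL-2-REH at 90 min), with 20201392 to 63903764 reads on genes per Treg library and 38201667 to 45189835 per CD8+ library. Levels are given as RPKM, reads per exon length and per depth of the library, which allows genes to be compared. The cell types matched their labels. Foxp3 was between 65.2 and 252 RPKM in the Treg libraries and at most 0.999 in the CD8+ libraries, and Cd8a was at most 1.84 RPKM in Tregs and between 103 and 256 in CD8+ T cells. The Treg libraries numbered 3 had more RNA of markers of other cell types, with a summed level of 6 erythroid genes of 136 to 246 RPKM, against 5.64 to 21.4 RPKM in replicates 1 and 2. A pair of neutrophil markers summed to 45.9 to 201 RPKM in replicate 3 and to at most 3.40 RPKM in the others. Macrophage and monocyte markers, 7 of 8 listed, summed to 16.3, 75.1 and 59.1 RPKM in unstimulated replicates 1, 2 and 3, to 7.84 to 15.1 in the cytokine libraries of replicate 1 and to 21.3 to 42.0 in those of replicates 2 and 3. They were thus lower with cytokine in all 3 replicates. The part of these cells in the members' levels was not tested, and in bulk RNA, fewer cells of a type and less RNA per cell cannot be told apart.

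One library stood apart in a way that touches every comparison with unstimulated Tregs. Over 10463 genes other than the members, 194 to 212 differed more than 4-fold between unstimulated replicate 1 and the other 2 unstimulated libraries, which differed from each other at 37 genes. Against the 6 cytokine libraries at 90 min, unstimulated replicate 1 differed at 11 to 73 genes, and unstimulated replicates 2 and 3 at 80 to 190 genes. Ramp3, a receptor-modifying protein singled out after its values were seen, was at 219 RPKM in unstimulated replicate 1, 2.91 in replicate 2 and 2.2503 in replicate 3, and between 70.4 and 239 RPKM in the 12 Treg libraries with cytokine. Every member except Nfkbiz had its highest unstimulated value in replicate 1. Whether its label or handling differed was not tested, and the unstimulated means and SD given here include it. Calls against unstimulated cells are therefore given with and without that library. The Treg library with IL-2 at 4 hr numbered 3 had the fewest reads on genes (20201392). It differed more than 4-fold from its same-numbered IL-2-REH library at 104 genes. The other same-numbered pairs of IL-2 and IL-2-REH at the same time differed at 1 to 3 genes. The part of this library in the values at 4 hr was not tested.

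In unstimulated Tregs the inhibitors led the order of levels. Tnfaip3 was highest at 436 ± 133 RPKM (SD, n = 3), followed by Nfkbia at 265 ± 60.1 and Nfkb1 at 106 ± 45.0 RPKM. Nfkbid (58.6 ± 25.04), Nfkbiz (51.1 ± 10.95), Nfkb2 (45.2 ± 24.3) and Rel (45.1 ± 35.5 RPKM) followed, and Relb (27.2 ± 10.7), Nfkbie (17.2 ± 2.65) and Nfkbib (14.5 ± 4.78 RPKM) were lowest (SD, n = 3 each). Of all neighbours in this order, only Nfkbia and Nfkb1 had ranges that did not overlap, and the ranges of the other neighbours overlapped across libraries. Within each of the 3 libraries, Tnfaip3 was nevertheless above Nfkbia, Nfkb1 above Nfkbid, Rel above Relb, Relb above Nfkbie, and Nfkbie above Nfkbib. The order of Nfkbid, Nfkbiz, Nfkb2 and Rel among themselves changed between libraries. In unstimulated CD8+ T cells, with 1 library and no replicate check, Tnfaip3 (259.6 RPKM), Nfkbia (79.7) and Nfkb1 (45.1) again came first, and Rel (8.71) and Nfkbie (8.10 RPKM) came last.

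**Figure D1:**
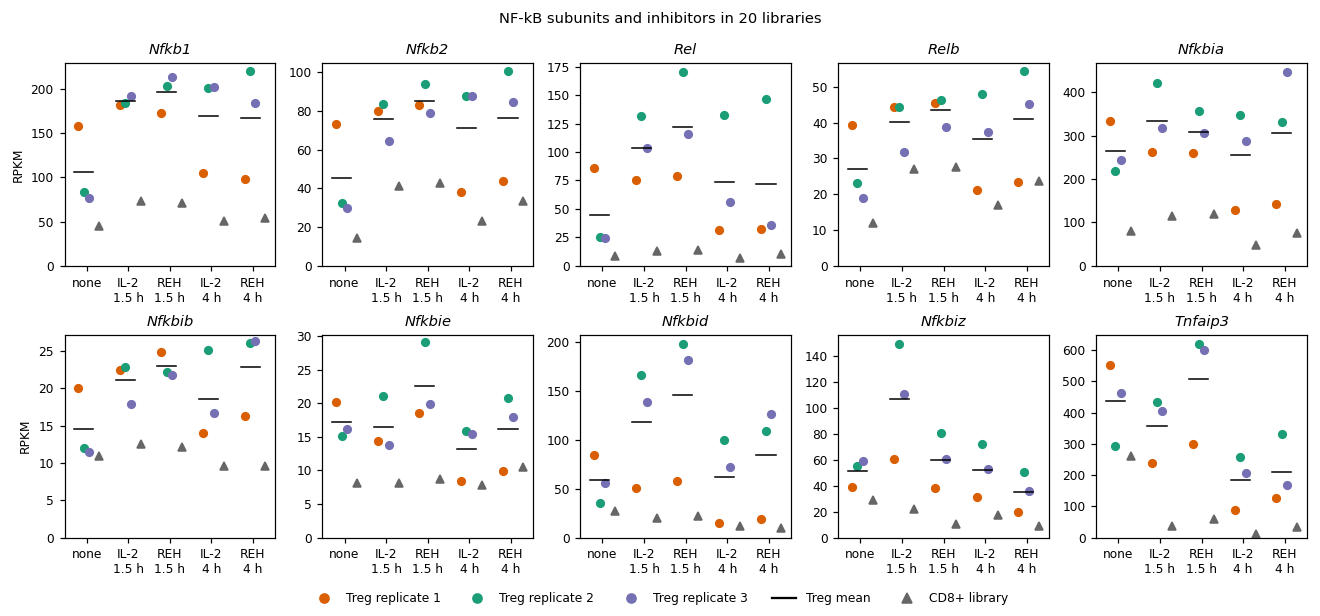
RPKM (linear axis from 0) of the 10 members in 20 libraries, with Treg replicates as coloured points, their mean as a line and the CD8+ library as a triangle, for cells without cytokine and with IL-2 or IL-2-REH (REH) at 1.5 h (90 min) or 4 h. Unstimulated replicate 1 lies near the cytokine libraries for the 4 subunit genes, and the CD8+ triangles lie below the Treg points except for Nfkbie and Relb with IL-2-REH at 4 h.

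The members were lower in CD8+ T cells than in Tregs. All 10 CD8+ values lay below all 3 Treg values in unstimulated cells, where 35.4% of 10457 expressed genes did. The same held for all 10 members with IL-2 at 90 min (32.7% of genes), with IL-2-REH at 90 min (39.7%) and with IL-2 at 4 hr (33.6%), and for 8 members with IL-2-REH at 4 hr (40.5%), all but Nfkbie and Relb. Without stimulation, the Treg mean was 5.18 times the CD8+ value for Rel, the c-Rel subunit, 3.33 times for Nfkbia, 3.16 times for Nfkb2 and 2.35 times for Nfkb1. It was only 1.33 times the CD8+ value for Nfkbib, which encodes IkBbeta, and 1.68 times for Tnfaip3. Since the strain of mouse, the sort and the number of libraries differ with the cell type, these cannot be told apart from the cell type itself.

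The question of the first Treg comparison was how the subunit genes differed between cytokine-treated and unstimulated cells at 90 min. All 4 were higher on average with either cytokine, but none passed the test with all libraries. Rel was at 86.0, 24.997 and 24.2 RPKM in unstimulated replicates 1, 2 and 3, at 75.7, 132 and 104 with IL-2 and at 78.9, 170.0 and 116 with IL-2-REH. Replicates 2 and 3 thus had far more Rel RNA with cytokine, and replicate 1 slightly less. Nfkb1 was at 157.5, 83.4 and 76.4 RPKM without cytokine, at 182, 184 and 192 with IL-2 and at 172, 203 and 213 with IL-2-REH, so the groups did not overlap, and unstimulated replicate 1 lay nearest to the cytokine libraries. Nfkb2 was at 73.2, 32.7 and 29.8 RPKM without cytokine, at 79.8, 83.4 and 64.6 with IL-2 and at 83.0, 94.0 and 79.1 with IL-2-REH. Relb was at 39.3, 23.2 and 19.1 RPKM without cytokine, at 44.4, 44.3 and 31.9 with IL-2 and at 45.5, 46.3 and 38.9 with IL-2-REH. For Nfkb2 and Relb the IL-2 group overlapped the unstimulated group through replicate 1 alone, and for Relb the IL-2-REH group did as well.

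Over all 15 Treg libraries, edgeR's quasi-likelihood test called 0 of the 10 members with IL-2 at 90 min (0.853% of 15009 genes called, Benjamini-Hochberg adjusted p under 0.05) and 0 with IL-2-REH at 90 min (0.0933%). At an unadjusted p under 0.05, 3 members passed for IL-2 and 5 for IL-2-REH, beside 2068 and 1704 of the 15009 genes. DESeq2 called 0 members in both. The log2 fold changes of Rel were 1.29 (95% interval -0.16 to 2.74, adjusted p = 0.41) with IL-2 and 1.52 (0.06 to 2.98, adjusted p = 0.42) with IL-2-REH. Those of Nfkb1 were 0.92 (0.11 to 1.73) and 1.001 (0.19 to 1.81), those of Nfkb2 0.83 (-0.06 to 1.72) and 1.01 (0.11 to 1.90), and those of Relb 0.66 (-0.09 to 1.41) and 0.78 (0.03 to 1.53).

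Without unstimulated replicate 1, the same test called 5 members with IL-2, all higher, namely Nfkb1, Nfkb2, Rel, Relb and the inhibitor gene Nfkbib, where 7.09% of genes were called higher. With IL-2-REH it called the same 5 genes, all higher, beside 6.95% of genes. Rel rose by 2.33 on the log2 scale with IL-2 (95% interval 0.83 to 3.82, adjusted p = 0.043 from edgeR) and by 2.55 with IL-2-REH (1.04 to 4.06, adjusted p = 0.031). Nfkb1 rose by 1.45 and 1.53 and Nfkb2 by 1.50 and 1.68, each with an adjusted p under 0.05 in edgeR. Relb rose by 1.15 and 1.27. The calls of the subunits at 90 min therefore rest on leaving out a single unstimulated library. A setting added after the data were seen used the replicate number as a block and left out that library. It called 8 members higher with IL-2 and all 10 with IL-2-REH. Over all 15494 genes, this setting called 2146 and 2078 higher, where the fit without the block called 1098 and 1077. The counts of members are thus to be read beside a larger share of all genes.

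At 4 hr, replicate 1 stood below replicates 2 and 3 for all 4 subunit genes with both cytokines. Nfkb1 was at 105, 200.3 and 202 RPKM in replicates 1, 2 and 3 with IL-2 and at 98.0, 220.3 and 184 with IL-2-REH. Nfkb2 was at 38.0, 87.7 and 87.5 RPKM with IL-2 and at 43.8, 100.4 and 84.6 with IL-2-REH. Rel was at 31.6, 133 and 55.9 RPKM with IL-2 and at 32.5, 147 and 35.8 with IL-2-REH, and Relb at 21.1, 47.9 and 37.4 with IL-2 and at 23.6, 54.5 and 45.3 with IL-2-REH. For all 4 genes, the replicate 1 library was below unstimulated replicate 1 at 4 hr, whereas replicates 2 and 3 were above their unstimulated libraries.

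With all libraries, 0 of 10 members were called at 4 hr with IL-2 (2.27% of genes called) or with IL-2-REH (0.313%). At an unadjusted p under 0.05, 1 member passed for IL-2 and 2 for IL-2-REH, beside 2657 and 1998 of 15009 genes. DESeq2 called 0 in both. Without unstimulated replicate 1, 2 members were called with IL-2, Nfkb1 (log2 fold change 1.23, adjusted p = 0.048 from edgeR) and Nfkb2 (1.34, adjusted p = 0.041), beside 4.28% of genes called higher. With IL-2-REH, 2 were called as well, Nfkb2 (1.36, adjusted p = 0.044) and Nfkbib (1.04, adjusted p = 0.020), beside 3.3% of genes. Without all libraries of replicate 1, 8 members were called higher with IL-2 at 90 min (9.08% of genes), 7 with IL-2-REH at 90 min (8.73%), 6 with IL-2 at 4 hr (6.77%) and 5 with IL-2-REH at 4 hr (5.08%). Nfkb1, Nfkb2, Relb, Nfkbib and Nfkbid were among them in all 4 comparisons.

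**Figure D2:**
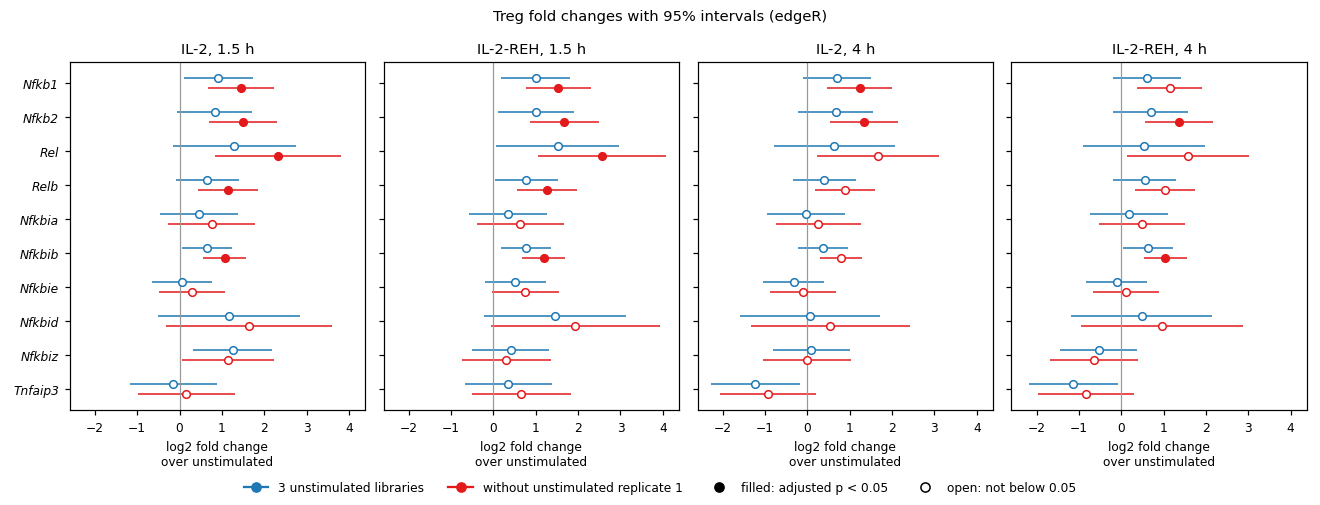
Log2 fold change over unstimulated Tregs with 95% intervals from edgeR, for IL-2 and IL-2-REH at 1.5 h (90 min) and 4 h, with all 3 unstimulated libraries (blue) and without unstimulated replicate 1 (red), filled where the adjusted p-value was under 0.05. None of the blue points is filled, and 5 red points are filled in each panel at 1.5 h and 2 in each at 4 h.

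Among the inhibitors, Nfkbia, which encodes IkBalpha, had overlapping groups in Tregs. It was at 333, 218 and 244 RPKM without cytokine, at 261, 422 and 318 with IL-2 at 90 min and at 261, 356 and 307 with IL-2-REH at 90 min. At 4 hr it was at 129.9, 347 and 287 RPKM with IL-2 and at 142, 331 and 447 with IL-2-REH, again with the lowest values in replicate 1. Its log2 fold change over unstimulated cells was between -0.03 with IL-2 at 4 hr and 0.46 with IL-2 at 90 min, and neither passed the test (adjusted p = 0.98 and 0.67 from edgeR). These were 0.26 and 0.77 without unstimulated replicate 1, again not called. Nfkbib was at 20.01, 12.02 and 11.5 RPKM without cytokine, at 22.5, 22.9 and 17.9 with IL-2 at 90 min and at 24.9, 22.2 and 21.8 with IL-2-REH at 90 min. Only unstimulated replicate 1 reached into the IL-2 group, and the IL-2-REH group did not overlap the unstimulated one. Nfkbie, the gene of IkBepsilon, was at 20.2, 15.1 and 16.2 RPKM without cytokine and between 8.41 and 29.1 RPKM in the cytokine libraries, and was not called with all libraries. Without replicate 1 it was called with IL-2-REH at 90 min.

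Nfkbid and Nfkbiz encode nuclear IkB proteins, which bind NF-kB subunits on DNA and can raise as well as limit transcription. Nfkbid was at 85.1, 35.3 and 55.6 RPKM without cytokine, at 51.1, 166.2 and 139 with IL-2 and at 57.7, 198 and 182 with IL-2-REH at 90 min. Replicates 2 and 3 were higher with cytokine and replicate 1 lower, and the fitted log2 fold changes of 1.16 (95% interval -0.51 to 2.83) and 1.45 (-0.23 to 3.14) did not pass. Without unstimulated replicate 1 they were 1.64 and 1.93 (adjusted p = 0.27 and 0.20 from edgeR), and with IL-2 at 4 hr the value was 0.54. Nfkbiz was at 38.7, 55.6 and 59.1 RPKM without cytokine and at 60.4, 149.6 and 111 with IL-2 at 90 min. All 3 libraries with IL-2 were above all 3 without cytokine, and the log2 fold change was 1.26 (0.33 to 2.18, adjusted p = 0.22 from edgeR), or 1.155 without unstimulated replicate 1 (adjusted p = 0.15). With the replicate number as a block, Nfkbiz was the single member called with IL-2 at 90 min, with a log2 fold change of 1.10 and an adjusted p of 0.023, beside 1.37% of genes called higher. With IL-2-REH at 90 min, Nfkbiz was at 38.5, 80.6 and 60.6 RPKM, which overlapped the unstimulated group.

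Tnfaip3, the most abundant member, was at 553, 292 and 462 RPKM without cytokine. At 90 min it was at 239, 432 and 404 RPKM with IL-2 and at 300.2, 618 and 599 with IL-2-REH, both overlapping the unstimulated range. At 4 hr it was at 88.3, 259 and 205 RPKM with IL-2, all below the unstimulated libraries, and at 128, 330.1 and 168 with IL-2-REH. The log2 fold changes at 4 hr were -1.23 (95% interval -2.28 to -0.19, adjusted p = 0.21 from edgeR) with IL-2 and -1.13 (-2.18 to -0.09, adjusted p = 0.33) with IL-2-REH, neither of which passed. Leaving out unstimulated replicate 1 gave -0.93 and -0.83. Leaving out all libraries of replicate 1 gave -0.61 and -0.58, and leaving out those of replicate 2 gave -1.72 and -1.83.

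From 90 min to 4 hr, the fitted differences of all 10 members were negative with both cytokines, and 0 were called with IL-2 (0% of genes called, 2551 genes at an unadjusted p under 0.05 and 383 called by DESeq2) or with IL-2-REH (0%, 2188 and 253). Without replicate 1 the sign changed for Nfkb2 with IL-2, to 0.079, and with IL-2-REH for Nfkbia and Nfkbib, to 0.035 and 0.039, and Relb, to 0.012. In the same-numbered pairs, 4 members were lower at 4 hr in all 3 pairs for IL-2 (22.1% of 10473 expressed genes) and 5 for IL-2-REH (20.9%). Nfkbid, Nfkbiz and Tnfaip3 were among them with both cytokines, Nfkbia with IL-2, and Nfkbie and Rel with IL-2-REH. The log2 ratios of Nfkbid were -1.71, -0.73 and -0.94 for IL-2 and -1.55, -0.86 and -0.51 for IL-2-REH. Nfkbiz and Tnfaip3 had an unadjusted p under 0.05 in edgeR with both cytokines. The log2 difference of Nfkbiz was -1.16 (adjusted p = 0.23 from edgeR) with IL-2 and -0.94 (adjusted p = 0.34) with IL-2-REH, and that of Tnfaip3 -1.09 (adjusted p = 0.28) and -1.48 (adjusted p = 0.25). Without replicate 1, Nfkbiz was called with IL-2 (-1.23, adjusted p = 0.029), beside 1.71% of genes called lower, and Tnfaip3 with IL-2-REH (-1.53, adjusted p = 0.046), beside 1.98%. Of 12 immediate early genes, which respond within minutes and also to handling, 4 fell and 0 rose with IL-2 at 4 hr against unstimulated Tregs (Dusp1, Fos, Junb and Zfp36), where 1.1% of all genes fell, and 2 fell with IL-2-REH (0.153%). The counts were 6 for IL-2 (4.59% of genes) and 5 for IL-2-REH (3.62%) without unstimulated replicate 1. With the replicate block, 5 fell for each cytokine (4.06% and 2.02% of genes). Fos was at 146, 132 and 341 RPKM in unstimulated replicates 1, 2 and 3 and at 10.7, 52.3 and 33.6 with IL-2 at 4 hr. The part of such a response in the level of Tnfaip3 was not tested.

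IL-2-REH was compared with IL-2 at the same dose and time. The test called 0 of 10 members at 90 min (0.0133% of genes called) and 0 at 4 hr (0.0267%). At an unadjusted p under 0.05 it also named 0 members at either time, beside 149 genes at 90 min and 558 at 4 hr. DESeq2 called 0 members at both times. The change of the difference between times was called for 0 members (0% of genes called, 47 genes at an unadjusted p under 0.05, 0 called by DESeq2). Nfkbiz had the widest fitted difference of the members at both times. At 90 min, it was at 38.5, 80.6 and 60.6 RPKM with IL-2-REH against 60.4, 149.6 and 111 with IL-2, and at 4 hr at 19.9, 50.3 and 36.1 against 31.6, 72.6 and 52.9. It was lower with IL-2-REH in all 3 same-numbered pairs at both times. The log2 differences were -0.85 (95% interval -1.77 to 0.07) and -0.63 (-1.55 to 0.29), with adjusted p-values of 0.9999 and 0.9996 in edgeR. With the block they were -0.82 (-1.30 to -0.34, unadjusted p = 0.0026) and -0.65 (-1.13 to -0.18, unadjusted p = 0.011), and neither passed the correction over 15009 genes (adjusted p = 0.9999 and 0.59 in edgeR).

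At 90 min, 8 of 10 members kept a single direction over the 3 same-numbered pairs, 6 higher with IL-2-REH and 2 lower, where 38.2% of 10473 expressed genes kept 1 direction. At 4 hr, 5 did, 4 higher and 1 lower (43.1% of genes). No minimum size was set for a direction. Nfkbia, counted as lower at 90 min, had log2 ratios of -0.0026, -0.24 and -0.054 at that time. Nfkbie was higher with IL-2-REH in every pair at both times, with log2 ratios of 0.35, 0.45 and 0.49 at 90 min and 0.21, 0.37 and 0.20 at 4 hr. Nfkbid was higher in every pair too, with log2 ratios of 0.17, 0.25 and 0.39 at 90 min and 0.33, 0.13 and 0.81 at 4 hr. Tnfaip3 was higher in all pairs at 90 min (0.33, 0.52 and 0.57) and not at 4 hr (0.52, 0.35 and -0.29). Pair 3 at 4 hr holds the IL-2 library that differed from its IL-2-REH library at 104 genes. The fitted log2 differences of the subunits at 90 min were 0.08 for Nfkb1 (95% interval -0.72 to 0.89), 0.12 for Relb (-0.63 to 0.87), 0.17 for Nfkb2 (-0.71 to 1.06) and 0.23 for Rel (-1.20 to 1.65). At 4 hr those of the subunits were between -0.10 for Rel and 0.15 for Relb. With the replicate block the intervals at 90 min were about as wide, from -0.72 to 0.87 for Nfkb1, -0.63 to 0.88 for Relb, -0.73 to 1.07 for Nfkb2 and -1.10 to 1.49 for Rel. The 3 paired log2 ratios at 90 min lay closer together, at -0.073, 0.14 and 0.15 for Nfkb1, 0.035, 0.060 and 0.28 for Relb and 0.055, 0.17 and 0.29 for Nfkb2. Each of these intervals reaches beyond 0.5 on the log2 scale, so the data do not show that the cytokines act alike on these genes.

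**Figure D3:**
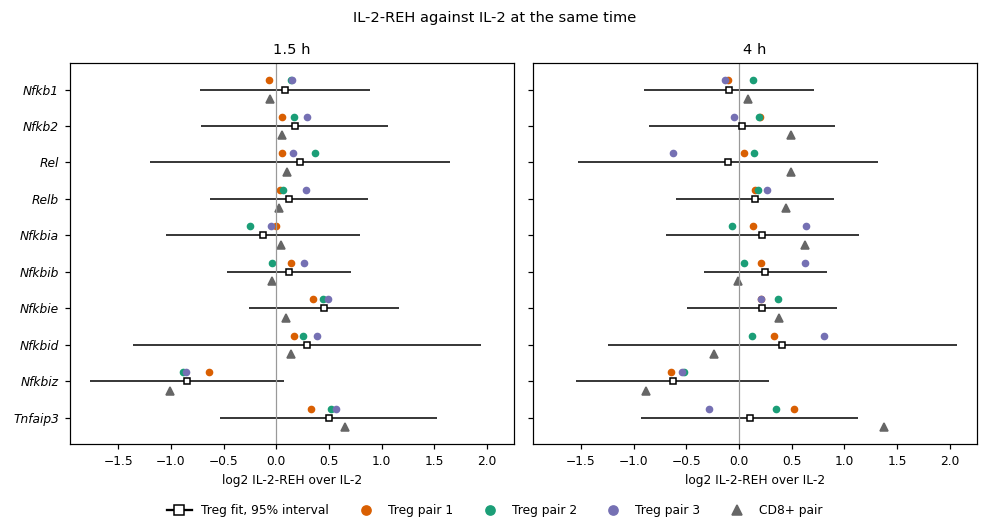
Log2 level with IL-2-REH over IL-2 at 1.5 h (90 min) and 4 h, with the edgeR estimate and 95% interval (squares), the 3 same-numbered Treg pairs (coloured points) and the CD8+ pair (triangles, log2 ratio of RPKM + 1). Every interval includes 0, and for Nfkbiz all Treg pairs and the CD8+ pair lie below 0 at both times.

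In CD8+ T cells, with 1 library per condition and no test, the subunit genes were higher at 90 min with both cytokines and the inhibitors parted. Nfkb2 was at 14.3 RPKM without cytokine, at 41.3 (IL-2) and 42.9 (IL-2-REH) after 90 min, and at 23.3 and 33.4 after 4 hr. Relb was at 11.9 RPKM without cytokine, 27.1 and 27.6 at 90 min, and 17.0 and 23.6 at 4 hr. Nfkb1 was at 45.1, 73.7 and 70.5 RPKM and then 50.9 and 54.2, and Rel at 8.71, 12.6 and 13.6 and then 7.04 and 10.3. The levels of all 4 subunits at 90 min were thus nearly equal between the cytokines, and at 4 hr each was higher with IL-2-REH. For Nfkb1 the log2 ratio of RPKM + 1 at 4 hr was only 0.09, beside a median of 0.08 over all genes. It was 0.50 for Nfkb2, 0.50 for Rel and 0.45 for Relb.

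Nfkbia was at 79.7 RPKM in unstimulated CD8+ T cells, at 115 (IL-2) and 119 (IL-2-REH) after 90 min, and at 48.4 and 75.1 after 4 hr. Tnfaip3 was at 259.6 RPKM without cytokine, 38.4 and 60.8 at 90 min, and 12.1 and 32.97 at 4 hr, the largest change of any member in these cells. Nfkbiz was at 29.1 RPKM without cytokine, at 22.3 (IL-2) and 10.6 (IL-2-REH) after 90 min, and at 17.1 and 8.84 after 4 hr, so it was lower with IL-2-REH than with IL-2 at both times. Nfkbid was at 27.1 RPKM, then 19.7 and 21.8, then 11.5 and 9.60. Nfkbib stayed between 9.57 and 12.6 RPKM and Nfkbie between 7.85 and 10.5 over all 5 libraries. Of the 12 immediate early genes, 7 to 9 had a log2 ratio of RPKM + 1 below -1 in each cytokine library against the unstimulated one, where 4.43% and 6.11% of all genes did at 90 min and 3.4% and 4.33% at 4 hr for IL-2 and IL-2-REH. Fos was at 116 RPKM in unstimulated CD8+ T cells and at most 3.54 in the others, and the part of such a response in the level of Tnfaip3 was not tested.

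By the log2 ratio of RPKM + 1, 3 of 10 members passed an absolute value of 1 with IL-2 at 90 min (7.24% of 10021 genes), with Nfkb2 at 1.46 and Relb at 1.12 above and Tnfaip3 at -2.73 below. With IL-2-REH at 90 min, 4 passed (8.57% of genes), with Nfkb2 at 1.52, Relb at 1.15, Nfkbiz at -1.38 and Tnfaip3 at -2.07. At 4 hr, 2 passed with IL-2 (4.71%), Nfkbid at -1.16 and Tnfaip3 at -4.31, and 4 with IL-2-REH (6.11%), Nfkb2 at 1.17, Nfkbid at -1.40, Nfkbiz at -1.61 and Tnfaip3 at -2.94. Between the cytokines, 1 member passed at 90 min, Nfkbiz at -1.01 (0.868% of genes), and 1 at 4 hr, Tnfaip3 at 1.37 (2.23%). Nfkbiz no longer passed when the libraries were centred on their medians. None of these ratios has a replicate check. Over all genes the medians of the 4 ratios over unstimulated cells lay between -0.12 and -0.02, beside 0.34, 0.36, -0.22 and 0.07 for the members with IL-2 and IL-2-REH at 90 min and then at 4 hr.

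**Figure D4:**
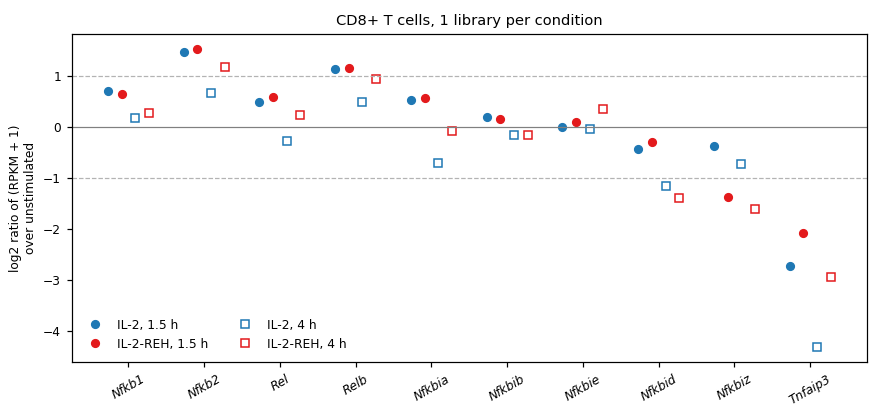
Log2 ratio of RPKM + 1 over the unstimulated library in CD8+ T cells for the 10 members, at 1.5 h (90 min, filled circles) and 4 h (open squares) with IL-2 (blue) or IL-2-REH (red), with dashed lines at -1 and 1. Nfkb2 and Relb lie above 1 at 1.5 h with both cytokines, and Tnfaip3 lies below -2 in all 4 comparisons.

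Other genes of the pathway were followed by a list of 38 adaptors, kinases, the subunit Rela and inhibitors, of which 37 were tested in Tregs. With all libraries, 2 rose with IL-2 at 90 min (Ripk1 and Traf6), 1 rose with IL-2 at 4 hr (Traf6), 0 changed with IL-2-REH at either time, and 0 fell. Of all 15009 genes, 117 rose with IL-2 at 90 min and 176 at 4 hr. With IL-2-REH only 14 and 47 of them were called in either direction. The medians of the list's log2 fold changes were 0.30 and 0.25 at 90 min and -0.07 and -0.07 at 4 hr with IL-2 and IL-2-REH, beside medians over all genes of -0.06 and -0.05 at 90 min and near 0 at 4 hr. Traf6, a ubiquitin ligase that passes on receptor signals, was at 13.3, 15.9 and 15.2 RPKM without cytokine, 32.9, 34.003 and 38.1 with IL-2 at 90 min, and 28.0, 33.4 and 20.5 with IL-2 at 4 hr. Its log2 fold changes were 1.40 (adjusted p = 0.0059 from edgeR) and 0.94 (adjusted p = 0.037). Without unstimulated replicate 1, 8 of 37 rose and 2 fell for IL-2 at 90 min, beside 7.09% and 5.8% of all genes, and 4 rose and 2 fell for IL-2-REH, beside 6.95% and 5.14%. At 4 hr, 3 rose and 1 fell for IL-2 (4.28% and 4.59% of genes) and 1 rose and 1 fell for IL-2-REH (3.3% and 3.62%). With the replicate block, Ripk1 and Traf6 rose with IL-2 at both times (1.37% and 2.85% of genes higher). No gene of the list was called with IL-2-REH in that fit, beside 32 and 455 of 15009 genes. Rela, the partner of the Nfkb1 product, was among those that rose with both cytokines at 90 min without unstimulated replicate 1. It rose by 0.82 with IL-2 (adjusted p = 0.030 from edgeR) and by 0.96 with IL-2-REH (adjusted p = 0.016). Rela was not called with all libraries, with the replicate block, or at 4 hr without that unstimulated library. Without all libraries of replicate 1, it was called higher with both cytokines at both times. In that fit 9.08% and 8.73% of genes were higher at 90 min and 6.77% and 5.08% at 4 hr with IL-2 and IL-2-REH.

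A list of 35 genes often induced by NF-kB, called targets here, was tested in full. The paper names Lta, which is on the list, as a STAT5 target gene, so the list is not particular to NF-kB. With all libraries and no replicate block, 0 targets were called at 90 min with IL-2 (0.853% of genes called) or IL-2-REH (0.0933%). At 4 hr, 2 rose and 2 fell with IL-2, and 0 rose and 2 fell with IL-2-REH, the chemokine gene Cxcl2 and the AP-1 gene Junb. Icam1, an adhesion molecule, rose with IL-2 by 1.07 on the log2 scale (adjusted p = 0.026 from edgeR) and Il2ra, the alpha chain of the IL-2 receptor, by 1.15 (adjusted p = 0.041). The log2 fold change of Cxcl2 was -2.22 (adjusted p = 0.0036) and that of Junb -1.46 (adjusted p = 0.033). The medians of the target list were 0.68 and 0.57 at 90 min and -0.01 and -0.04 at 4 hr with IL-2 and IL-2-REH. Without unstimulated replicate 1, 9 of 35 targets rose and 0 fell for IL-2 at 90 min, beside 7.09% and 5.8% of all genes, and 6 rose and 2 fell for IL-2-REH, beside 6.95% and 5.14%. At 4 hr, 7 rose and 3 fell for IL-2 (4.28% and 4.59% of genes) and 5 rose and 3 fell for IL-2-REH (3.3% and 3.62%). The medians of the list then were 0.75 and 0.62 at 90 min and 0.44 and 0.31 at 4 hr, so the medians at 4 hr depend on that library. With the replicate block, Myc and Tnfrsf18 rose with IL-2 at 90 min (1.37% of genes higher) and 0 targets were called with IL-2-REH (32 of 15009 genes called). At 4 hr the block called 6 higher and 4 lower for IL-2 (2.85% and 4.06% of genes) and 2 higher and 3 lower for IL-2-REH (1.01% and 2.02%). The TNF receptor family genes Tnfrsf4 (OX40), Tnfrsf9 (4-1BB) and Tnfrsf18 (GITR), named after their values were seen, rose at 90 min without that library, by 2.59, 2.77 and 2.07 with IL-2 and by 2.197, 2.57 and 1.74 with IL-2-REH. By edgeR, 0 genes of either list differed between the cytokines at 90 min or 4 hr.

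In CD8+ T cells, 27 genes of the target list were expressed. Between the cytokines, 0 passed a log2 ratio of 1 in favour of IL-2-REH and 7 lay below -1 at each time, the same 7 genes at both, where 0.808% and 1.68% of 10021 genes lay below -1 at 90 min and 4 hr. These were the cytokine genes Tnf and Lta, the chemokine genes Ccl3 and Ccl4, the survival gene Bcl2l1, Myc and Tnfrsf18. Of 37 pathway genes, 0 passed this limit in either direction at either time. These values rest on 1 library for each condition. The paper reports much less STAT5 phosphorylation with IL-2-REH than with IL-2 in CD8+ T cells. The parts of STAT5 and of NF-kB in the levels of these genes were not tested.

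Over all 20 libraries, the genes whose log2(RPKM + 1) followed Nfkbia most closely were Nr4a1 (Pearson's r = 0.96), Whamm (0.94), Ube2s (0.94), H2-Q4 (0.93) and Dhrs3 (0.93), among 10447 expressed genes other than the members. Those closest to Nfkb1 were Mapkapk2 (0.98), Clk3 (0.96), Gadd45b (0.96), Aplp2 (0.96) and Asxl1 (0.96). Among the members, Nfkb2 and Relb were the pair most alike (r = 0.98), followed by Nfkb1 and Nfkb2 (0.95), and Tnfaip3 and Relb the least alike (0.47). The libraries share cell types, conditions and replicate numbers, so these values describe the data and carry no test.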

How the data were processed

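Per the labels and the paper's methods, total RNA was made into libraries with the Kapa mRNA HyperPrep kit and sequenced as single-end reads on an Illumina HiSeq3000. The authors mapped reads to mm10 with Bowtie2 2.2.6 and TopHat2 2.1.1, and their processing notes also name SAMtools 0.1.8, bedtools 2.25.0 and edgeR. The authors deposited, for 31682 RefSeq transcripts, the count of uniquely mapped reads on exons, not normalized, and the RPKM. Use of the strand in counting is not given in the sources used here. Reads of transcripts of 1 gene are shared, so isoforms of Nfkb2, Nfkbiz and Tnfaip3 were not separated. Nfkbib, Nfkb1 and Nfkb2 overlap other annotated genes.

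Treg read counts were tested with edgeR 4.0.16 in R 4.3.3 (TMM, filterByExpr, quasi-likelihood test) with 1 mean per group over 15 libraries, and p-values were adjusted over 15009 genes by the Benjamini-Hochberg method. For CD8+ libraries, log2 ratios of RPKM + 1 were formed where the mean RPKM over the 5 libraries reached 1, with no test. Alternatives were the replicate block, DESeq2 1.42.0, limma 3.58.1 on log2 of RPKM plus 1 or 0.1, other scaling and filters, the longest transcript and fits without libraries. Libraries with the same number deviated from their group means together (all 30 correlations across genes over 0.1, mean 0.54). The 60 pairs of different numbers had a mean of -0.26 and reached 0.34. Taking out the group means pushes these values down, so they are no independent check. The numbers in the labels were taken to pair the samples. Fits were tested on simulated data. Python 3.11.15, numpy 2.4.6, pandas 2.3.3 and matplotlib 3.10.9 were used.

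All 10 members are named. Of the pathway and target lists, the rule names genes called between the cytokines and the 2 highest and 2 lowest called with IL-2 at 4 hr. Members, lists and rules were chosen with earlier results of these data known.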

Additional observations from a re-analysis of the deposited data

Results flagged for a closer look

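For 3 members, every Treg pair moved one way and the CD8+ pair the other, by more than 0.1 on the log2 scale of RPKM + 1. The share of all genes that do so was not counted, so this number is not shown to be particular to the members. The difference was not tested in any case, since CD8+ T cells have 1 library per condition. Nfkbiz, the gene of a nuclear IkB protein, had log2 ratios of IL-2 at 90 min over unstimulated of 0.63, 1.41 and 0.89 in Treg replicates 1, 2 and 3 and of -0.37 in CD8+ T cells. Nfkbid, the gene of another, had log2 ratios of IL-2-REH over IL-2 at 4 hr of 0.33, 0.13 and 0.81 in Treg replicates 1, 2 and 3 and of -0.24 in CD8+ T cells. Nfkbie, the gene of IkBepsilon, had log2 ratios of 4 hr over 90 min with IL-2-REH of -0.84, -0.47 and -0.14 in Treg replicates 1, 2 and 3 and of 0.25 in CD8+ T cells. Groups of 3 libraries or 1 were too small to be searched for single outlying values.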

How the results depend on the processing

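The number of members called depended on the libraries of replicate 1. Fits that left out a replicate or 1 unstimulated library called 0 to 8 members with IL-2 at 90 min, 0 to 7 with IL-2-REH at 90 min, 0 to 6 with IL-2 at 4 hr and 0 to 5 with IL-2-REH at 4 hr, all against unstimulated Tregs. From 90 min to 4 hr they called 0 to 1 with IL-2 and 0 to 1 with IL-2-REH. No member was called without replicate 2 or 3, or without the unstimulated library of replicate 2 or 3. The replicate block called 1 member with IL-2 at 90 min (Nfkbiz) and changed no other call of a member. The block without unstimulated replicate 1, chosen after seeing the data, called 8 and 10 members at 90 min and 6 and 6 at 4 hr with IL-2 and IL-2-REH. All were higher, and of 15494 genes this fit called 2146 and 2078 higher at 90 min and 1618 and 1246 at 4 hr. DESeq2, limma, other scaling, no filter, the longest transcript and fits of only the groups compared called 0 members in every comparison.

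Signs changed as follows on the log2 scale. With IL-2 at 90 min, Nfkbie was -0.080 and -0.075 by limma with a pseudocount of 0.1 and 1 and -0.030 with the block, and Tnfaip3 was 0.47 with the block without unstimulated replicate 1. With IL-2 at 4 hr, that fit gave 0.51 for Nfkbia and 0.097 for Nfkbie. Limma gave -0.21 and -0.20 for Nfkbid and -0.023 and -0.022 for Nfkbiz with these pseudocounts, and the block gave -0.66 for Nfkbid. With IL-2-REH at 4 hr, the block gave -0.015 for Nfkbia and -0.28 for Nfkbid, and the block without unstimulated replicate 1 gave 0.30 for Nfkbie. Between the cytokines at 4 hr, Nfkb2 was -0.0074 when only the groups compared were fitted. The cause was not tested.

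With libraries left out, the ranges that crossed 0 against unstimulated cells were, with IL-2 at 90 min, -0.34 to 0.44 for Nfkbie and -0.58 to 0.43 for Tnfaip3. With IL-2-REH at 90 min, Tnfaip3 ranged from -0.092 to 0.95. With IL-2 at 4 hr, the ranges were -0.41 to 0.57 for Nfkbia, -0.62 to 1.005 for Nfkbid, -0.55 to 0.13 for Nfkbie, -0.13 to 0.24 for Nfkbiz and -0.30 to 2.02 for Rel. With IL-2-REH at 4 hr, they were -0.31 to 0.83 for Nfkbia, -0.058 to 1.43 for Nfkbid, -0.43 to 0.37 for Nfkbie and -0.77 to 1.91 for Rel. Between the cytokines at 4 hr, they were -0.057 to 0.40 for Nfkbia, -0.10 to 0.35 for Tnfaip3, -0.076 to 0.15 for Nfkb2 and -0.46 to 0.078 for Rel. From 90 min to 4 hr, they were -0.43 to 0.079 for Nfkb2 with IL-2, and -0.50 to 0.035 for Nfkbia, -0.24 to 0.039 for Nfkbib and -0.35 to 0.012 for Relb with IL-2-REH.

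In CD8+ T cells, an absolute log2 ratio above 2 left 1 member (Tnfaip3) in each comparison with unstimulated cells and 0 between the cytokines at 90 min and at 4 hr. Centring libraries on the median left 0 between the cytokines at 90 min. With 1 library per condition, the precision of these ratios is unknown.

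Over all genes, DESeq2 called 559, 111, 1010 and 583 genes against unstimulated Tregs (IL-2 and IL-2-REH at 90 min, then at 4 hr), and the block 275, 32, 1038 and 455, against 128, 14, 341 and 47. Between the cytokines, DESeq2 called 13 and 56 genes and the block 2 and 10, against 2 and 4 at 90 min and 4 hr. From 90 min to 4 hr, DESeq2 called 383 and 253 and the block 58 and 6, against 0 and 0.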
